A study of Mus musculus with 6 samples.

Results

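The 9 genes described here, *Prox1*, *Fabp7*, *Slc1a3*, *Lfng*, *Cd44*, *S100a1*, *Gas2*, *Emid1* and *Clu*, are known as markers of the supporting cells of the cochlea. They were chosen by name, and their symbols were matched to the Ensembl identifiers of the count files, where all 9 were found among 39179 genes. The RNA came from the sensory epithelia of the inner ear of wild-type C57Bl/6J mice at postnatal day 0, with males and females pooled. The study's methods describe a single dissection of 20 ears from 10 mice, from which both tissues were taken and pooled, with a single yield of RNA for each tissue, and 450 ng of RNA was used per library with a stranded mRNA kit and paired reads of 100 bp. The cochlea, the organ of hearing, and the vestibule, the organ of balance, were each sequenced in 3 libraries. The methods do not state outright whether the 3 libraries of a tissue share that RNA pool, so the p-values measure the spread between these libraries, which may be technical. No animal carried a mutation or received a treatment, and the libraries hold whole dissected epithelia, not sorted supporting cells.

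Supporting cells surround the hair cells in both organs, anchor them, buffer potassium and glutamate around them, and secrete the matrices that lie over the sensory surface. They arise from the same precursors as the hair cells, and Notch signalling between neighbouring cells keeps them from taking the hair cell fate. In the cochlea they form distinct types such as pillar, Deiters', inner phalangeal and Hensen's cells, while the vestibular supporting cells form a more uniform layer. Several of the markers are also known from other cells, among them glia (*Fabp7*, *Slc1a3*), lymphatic endothelium (*Prox1*) and leukocytes (*Cd44*), so that a level measured in a whole epithelium need not come from supporting cells alone.

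The authors deposited counts of read pairs per gene, which summed to between 24464483 and 33664793 over the genes of a library. Levels are given as CPM, the counts of a gene per 1000000 counts on genes in that library, so that 1 CPM stood for 24.5 to 33.7 counts. Differential expression (DE) was tested with edgeR's quasi-likelihood test, which compares the difference between the tissues with the spread between libraries, for the 14723 genes that reached 1 CPM in no fewer than 3 libraries, all 9 markers among them. Library sizes were scaled by TMM, which sets the bulk of the genes to equal levels, and genes with a Benjamini-Hochberg adjusted p (FDR) of at most 0.05 were called DE. The log2 fold change is given as vestibule minus cochlea, so values below 0 stand for more in the cochlea. Library 3 of the cochlea carried more skeletal muscle RNA than the others, and the fold change of each marker was also computed without it.

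Promoter sequences were read from RefSeq (GRCm38.p6) as the 250 bases before and the 50 bases after each annotated start. They were found for 8 of the 9 markers, in 11 windows of 300 bases. A pair of motifs was searched on both strands, TGGGAA, the core of the site of RBPJ, through which Notch acts, and ACAAAG, a core of the site of SOX factors. The motifs were chosen from textbook knowledge when the levels of the markers were already known, and they do not overlap each other. Shown are *Lfng*, the one marker that was not DE, and the markers with the largest change toward each tissue among those with a window, *Cd44* and *S100a1*. Each sequence is given 5′ to 3′ on the strand of its gene, with the letters of either motif, or of its reverse complement, in capitals. The window of *Lfng* lies at chr5:140607091-140607390 on the plus strand, that of *Cd44* at chr2:102901616-102901915 on the minus strand, and that of *S100a1* at chr3:90514281-90514580 on the minus strand.
Lfng: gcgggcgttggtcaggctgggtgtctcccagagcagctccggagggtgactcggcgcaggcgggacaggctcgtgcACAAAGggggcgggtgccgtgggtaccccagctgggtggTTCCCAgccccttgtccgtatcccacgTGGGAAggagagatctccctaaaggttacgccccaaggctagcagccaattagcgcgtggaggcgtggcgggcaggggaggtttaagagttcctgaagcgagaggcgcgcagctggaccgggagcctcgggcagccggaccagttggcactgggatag
Cd44: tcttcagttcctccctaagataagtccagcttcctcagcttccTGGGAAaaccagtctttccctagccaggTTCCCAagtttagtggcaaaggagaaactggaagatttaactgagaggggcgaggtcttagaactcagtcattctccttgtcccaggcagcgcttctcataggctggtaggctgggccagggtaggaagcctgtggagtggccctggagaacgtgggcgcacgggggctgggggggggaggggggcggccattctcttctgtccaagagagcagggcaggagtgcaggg
S100a1: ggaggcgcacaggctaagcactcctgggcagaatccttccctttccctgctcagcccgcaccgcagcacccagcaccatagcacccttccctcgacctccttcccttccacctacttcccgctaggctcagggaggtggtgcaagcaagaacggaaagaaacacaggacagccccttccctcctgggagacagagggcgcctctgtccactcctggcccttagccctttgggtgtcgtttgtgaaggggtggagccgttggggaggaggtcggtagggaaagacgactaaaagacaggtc

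The *Lfng* window holds TGGGAA at 2 places, with the leftmost base at -135 and -108 from the start, and ACAAAG at -174. That of *Cd44* holds TGGGAA at -207 and -179, and that of *S100a1* neither motif. Over the 11 windows, TGGGAA was in 5, which belong to 5 markers (*Prox1*, *Fabp7*, *Lfng*, *Cd44* and *Emid1*), and ACAAAG in 3 windows (*Prox1*, *Lfng* and *Emid1*). Over all 32851 windows of the same length, 25.6% held TGGGAA and 18.7% held ACAAAG. A match of letters describes these windows and says nothing on whether a factor binds there.

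All 9 markers were measured in both organs, none below 12.8 CPM in any library, and they did not move together between the organs. *Clu*, *Cd44*, *Fabp7* and *Prox1* were up-regulated in the cochlea, *S100a1*, *Emid1*, *Gas2* and *Slc1a3* were up-regulated in the vestibule, and *Lfng* was not called. Thus 4 of the 9 were higher in the cochlea, where 11.6% of all genes tested were, and 4 were higher in the vestibule, where 15.8% of all genes were. Of all genes tested, 27.4% were called in either direction. The median log2 fold change of the markers was -0.024, beside 0.0048 over all genes tested. The libraries taken singly gave the same split, and in 4 markers all cochlear libraries lay above all vestibular ones (14.3% of genes tested), in 4 the reverse (27.5%), and in 1 the groups overlapped. Without TMM the median of all genes rose to 0.13, and the calls toward the cochlea went from 1711 to 1251 and those toward the vestibule from 2325 to 2754, while the 8 DE markers kept their direction and their call.

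**Figure D1:**
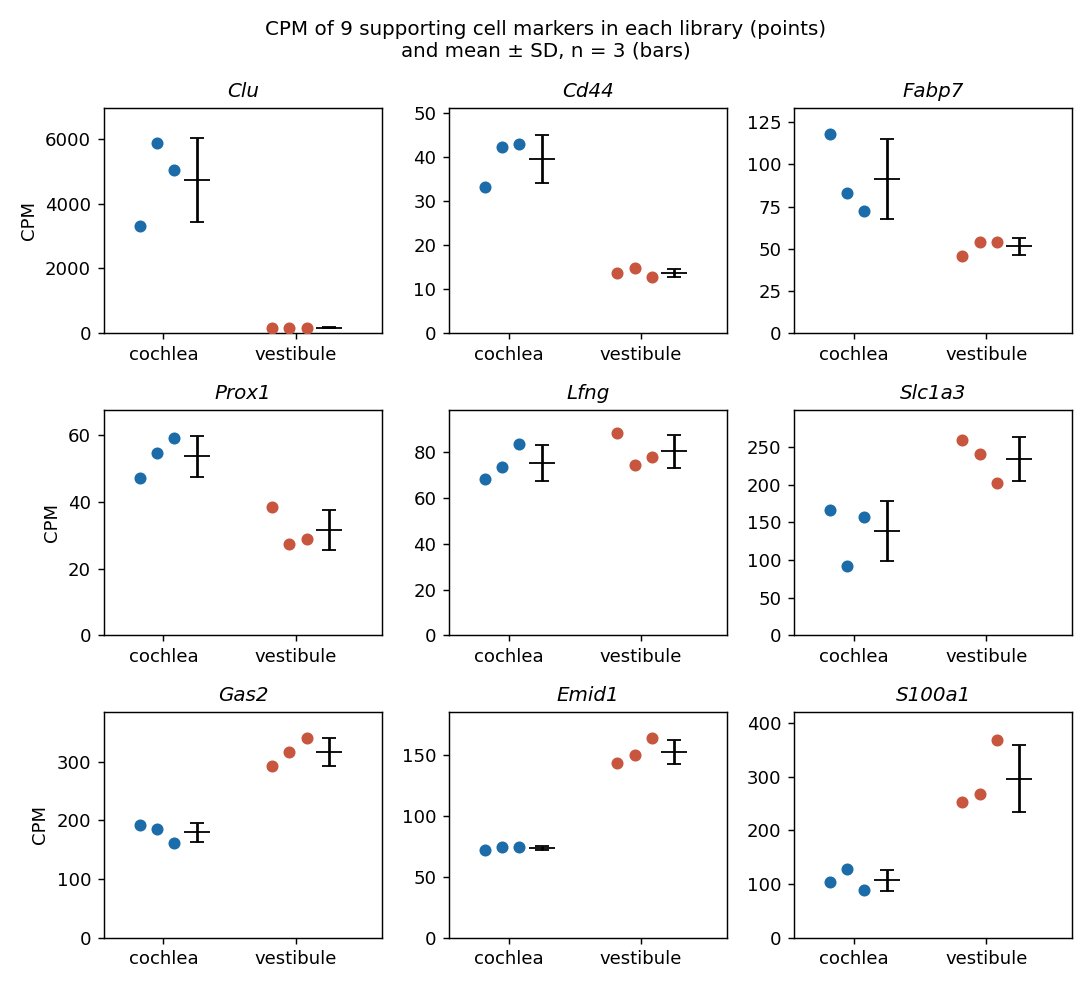
Level of each marker in CPM (vertical axis, each panel from 0) in the 3 cochlear and 3 vestibular libraries (points), with the mean and SD of each tissue beside them. In the panels of Clu, Cd44, Fabp7 and Prox1 every cochlear point lies above every vestibular point, in those of Slc1a3, Gas2, Emid1 and S100a1 the reverse holds, and in that of Lfng the points overlap.

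*Clu* separated the organs more than any other marker. It encodes clusterin, a secreted chaperone that binds misfolded proteins and lipids. The gene (ENSMUSG00000022037) lies at chr14:65968483-65981547 on the plus strand of GRCm38. Its level was 3304, 5865 and 5028 CPM in the cochlear libraries 1 to 3, and 149, 167 and 172 CPM in the vestibular ones. The lowest cochlear library thus stood far above the highest vestibular one, while the cochlear libraries differed among themselves more than the vestibular libraries did. The mean was 4732 ± 1306 CPM (SD, n = 3) in the cochlea and 163 ± 12.0 CPM in the vestibule. The fold change was -4.98 on the log2 scale (SE 0.29, edgeR adjusted p = 9.13e-06), or 31.6-fold higher in the cochlea (95% interval 19.9 to 50.2), and 69th in size among the genes tested. *Clu* alone took 0.33%, 0.586% and 0.503% of the counts on genes of the cochlear libraries, and 0.0149%, 0.0167% and 0.0172% of those of the vestibular ones.

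*Clu* also set the sum of the marker list. All 9 markers together held 0.411%, 0.66% and 0.577% of the counts of the cochlear libraries and 0.128%, 0.131% and 0.142% of those of the vestibular libraries. Without *Clu*, the other 8 held 0.0802%, 0.0735% and 0.0739% of the cochlear counts and 0.114%, 0.114% and 0.125% of the vestibular counts. The order of the organs in the summed counts thus turned when that gene was left out, and with or without it the libraries of the tissues did not overlap.

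*Cd44* and *Emid1* act at the cell surface and in the matrix, and they went opposite ways. *Cd44* encodes the main receptor for hyaluronan, a long sugar polymer of the matrix, and is known as a marker of outer pillar cells. The gene (ENSMUSG00000005087) lies at chr2:102811141-102901665 on the minus strand. Its level was 33.2, 42.3 and 43.1 CPM in the cochlea and 13.7, 14.7 and 12.8 CPM in the vestibule, so that every cochlear library was above every vestibular one. The means were 39.5 ± 5.53 and 13.7 ± 0.943 CPM (SD, n = 3). It was 3.14-fold higher in the cochlea (95% interval 2.45 to 4.02), a log2 fold change of -1.65 (SE 0.16, edgeR adjusted p = 0.000111). Among the enzymes that make hyaluronan, *Has3* was up-regulated in the cochlea (log2 fold change -1.48, SE 0.42, edgeR adjusted p = 0.0301), from 3.83 to 8.87 CPM there and 1.40 to 3.53 CPM in the vestibule. *Has2* stood at 1.39 to 1.88 CPM in the cochlea and 1.14 to 2.06 CPM in the vestibule and was not called.

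*Emid1* encodes a secreted protein with an EMI domain, a fold shared with the emilins of elastic fibres. The gene (ENSMUSG00000034164) lies at chr11:5106265-5152257 on the minus strand. Its level was 72.1, 74.7 and 74.4 CPM in the cochlea and 144, 150.0 and 164 CPM in the vestibule, with no overlap. The means were 73.7 ± 1.43 and 153 ± 10.6 CPM (SD, n = 3). It was 1.91-fold higher in the vestibule (95% interval 1.55 to 2.35), a log2 fold change of 0.93 (SE 0.13, edgeR adjusted p = 0.000891). Its relative *Emilin2*, by contrast, was up-regulated in the cochlea (log2 fold change -1.01, SE 0.21, edgeR adjusted p = 0.00787). *Emilin1* and *Col26a1* were not called, with log2 fold changes of 0.30 and -0.26. Of the summed RPKM (CPM per kilobase of exons) of these 4 genes, *Emid1* made up 23.6% to 27.7% in the cochlea and 37.9% to 47.3% in the vestibule.

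Of the markers of transcription and Notch signalling, *Prox1* was up-regulated in the cochlea and *Lfng* was not called. *Prox1* encodes a homeobox transcription factor that comes on as pillar and Deiters' cells differentiate. The gene (ENSMUSG00000010175) lies at chr1:190118035-190170714 on the minus strand. Its level was 47.0, 54.5 and 59.1 CPM in the cochlea and 38.3, 27.2 and 28.9 CPM in the vestibule. The groups did not overlap, though library 1 of each tissue came closest to the other tissue. The means were 53.5 ± 6.14 and 31.5 ± 5.99 CPM (SD, n = 3). It was 1.85-fold higher in the cochlea (95% interval 1.44 to 2.38), a log2 fold change of -0.89 (SE 0.16, edgeR adjusted p = 0.00337). The antisense gene *Prox1os* shares 133 bp with the exons of *Prox1*, 1.585% of their length, and had 14 to 50 counts per library. The paralog *Prox2* was near the detection filter in both organs, at 1.15 to 1.40 CPM in the cochlea and 1.26 to 1.84 CPM in the vestibule.

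*Lfng* encodes lunatic fringe, a glycosyltransferase that adds a sugar to Notch and so shifts which ligands the receptor answers to. The gene (ENSMUSG00000029570) lies at chr5:140607320-140615545 on the plus strand. Its level was 68.1, 73.6 and 83.6 CPM in the cochlea and 88.4, 74.4 and 78.0 CPM in the vestibule, and the groups overlapped. The means were 75.1 ± 7.83 and 80.3 ± 7.24 CPM (SD, n = 3). The log2 fold change was -0.024 (SE 0.13, edgeR adjusted p = 0.912), with a 95% interval of -0.32 to 0.27, so that changes over 1.25-fold in either direction lay outside it. Its sign turned to 0.096 without TMM. Of the other fringes, *Mfng* was up-regulated in the vestibule (log2 fold change 1.17, SE 0.16, edgeR adjusted p = 0.000679), from 13.4 to 16.8 CPM in the cochlea and 34.3 to 41.8 CPM in the vestibule, and *Rfng* was not called (-0.073). *Lfng* thus made up 60.9% to 62.0% of the summed RPKM of the 3 fringes in the cochlea and 51.2% to 58.7% in the vestibule, and *Mfng* 9.10% to 11.6% and 18.3% to 23.5%.

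The Notch ligands and receptors around *Lfng* also went different ways. *Jag1*, a ligand made by supporting cells themselves, was up-regulated in the cochlea (log2 fold change -1.50, SE 0.14, edgeR adjusted p = 0.000104), with 226 to 299 CPM there and 99.4 to 104 CPM in the vestibule. *Dll1*, a ligand of nascent hair cells, was up-regulated in the vestibule (1.93, SE 0.21, edgeR adjusted p = 0.000212), with 2.94 to 4.41 CPM in the cochlea and 12.9 to 17.5 CPM in the vestibule. *Jag2*, *Notch1* and *Notch2* were not called, with log2 fold changes of 0.51, -0.64 and 0.34.

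*Fabp7* and *Slc1a3*, which the cochlear supporting cells share with glia, also went opposite ways. *Fabp7* encodes the brain fatty acid-binding protein, which carries long-chain fatty acids within the cell. The gene (ENSMUSG00000019874) lies at chr10:57784881-57788450 on the plus strand. Its level was 118, 83.0 and 72.6 CPM in the cochlea and 45.7, 54.2 and 54.3 CPM in the vestibule, with no overlap and with library 1 of the cochlea the highest. The means were 91.3 ± 23.9 and 51.4 ± 4.91 CPM (SD, n = 3). It was 1.92-fold higher in the cochlea (95% interval 1.41 to 2.62), a log2 fold change of -0.94 (SE 0.20, edgeR adjusted p = 0.00725). Its paralog *Fabp5* was also up-regulated in the cochlea (-0.85, SE 0.20, edgeR adjusted p = 0.0134). *Fabp3* varied within the cochlea, from 2.43 CPM in library 3 to 13.2 CPM in library 1, and was not called.

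*Slc1a3* encodes GLAST, the transporter that clears glutamate from around the inner hair cells. The gene (ENSMUSG00000005360) lies at chr15:8634124-8710764 on the minus strand. Its level was 167, 92.8 and 157 CPM in the cochlea and 260.0, 241 and 202 CPM in the vestibule. The groups did not overlap, and library 2 of the cochlea was the lowest by a wide margin. The means were 139 ± 40.1 and 234 ± 29.6 CPM (SD, n = 3). It was 1.56-fold higher in the vestibule (95% interval 1.14 to 2.13), a log2 fold change of 0.64 (SE 0.20, edgeR adjusted p = 0.0419). This call rested on single libraries. Without library 2 of the cochlea the log2 fold change was 0.43 (edgeR adjusted p = 0.0768), without library 1 of the vestibule 0.61 (0.105), and without library 2 of the vestibule 0.65 (0.116).

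Around *Slc1a3*, the enzyme that turns glutamate into glutamine, *Glul*, was up-regulated in the vestibule (log2 fold change 1.33, SE 0.28, edgeR adjusted p = 0.00745), with 279 to 354 CPM in the cochlea and 584 to 1149 CPM in the vestibule. Of the family's other transporters listed here, *Slc1a5* (0.63) and *Slc1a1* (2.76) were up-regulated in the vestibule too. The latter stood at 2.67 to 2.76 CPM there and 0.274 to 0.451 CPM in the cochlea. *Slc1a2* and *Slc1a4* were not called (0.47 and 0.21). *Slc1a3* made up 30.5% to 41.5% of the summed RPKM of the 5 transporters in the cochlea and 38.3% to 45.5% in the vestibule, and the ranges overlapped.

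*S100a1* and *Gas2*, which act on calcium and the cytoskeleton, were both up-regulated in the vestibule. *S100a1* encodes a calcium-binding EF-hand protein and is known as a marker of Deiters' and pillar cells. The gene (ENSMUSG00000044080) lies at chr3:90511034-90514392 on the minus strand. Its level was 104, 128 and 88.8 CPM in the cochlea and 253, 268 and 368 CPM in the vestibule, so that the lowest vestibular library was well above the highest cochlear one. The means were 107 ± 19.8 and 296 ± 62.9 CPM (SD, n = 3). It was 2.55-fold higher in the vestibule (95% interval 1.80 to 3.63), a log2 fold change of 1.35 (SE 0.22, edgeR adjusted p = 0.00216), the largest change toward the vestibule among the markers.

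The S100 genes compared here were 8 taken from a list and held in the log2 RPKM matrix, and the matrix was not searched for further ones. Besides *S100a1*, 3 of them were up-regulated in the vestibule, *S100a13* (log2 fold change 1.16), *S100b* (0.72) and *S100a11* (0.71). *S100a4*, *S100a6*, *S100a10* and *S100a16* were not called, with values from -0.094 to 0.84. *S100a1* made up 23.1% to 28.0% of the summed RPKM of these 8 genes in the cochlea and 31.6% to 37.8% in the vestibule.

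*Gas2* encodes a protein that links actin filaments to microtubules, both of which fill the pillar and Deiters' cells. The gene (ENSMUSG00000030498) lies at chr7:51862015-51994975 on the plus strand. Its level was 192, 186 and 161 CPM in the cochlea and 293, 316 and 340.5 CPM in the vestibule, with no overlap. The means were 179.7 ± 16.3 and 316 ± 23.7 CPM (SD, n = 3). It was 1.62-fold higher in the vestibule (95% interval 1.29 to 2.04), a log2 fold change of 0.70 (SE 0.15, edgeR adjusted p = 0.00718). *Fancf*, on the other strand, shares 253 bp with the exons of *Gas2*, 5.067% of their length, and had 74 to 144 counts per library beside 4700 to 9865 for *Gas2*. The paralog *Gas2l2* was up-regulated in the vestibule (2.79, SE 0.27, edgeR adjusted p = 0.000134), at 2.36 to 2.67 CPM there and 0.278 to 0.411 CPM in the cochlea, while *Gas2l1* (0.42) and *Gas2l3* (-0.067) were not called. *Gas2* made up 73.4% to 80.8% of the RPKM of these 4 genes in the cochlea and 80.8% to 84.7% in the vestibule.

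**Figure D2:**
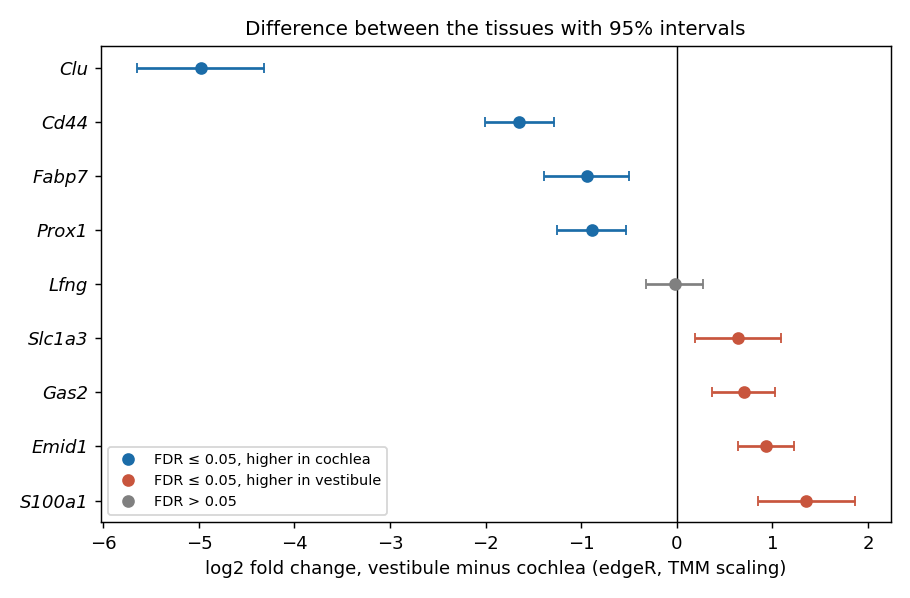
The log2 fold change of each marker, vestibule minus cochlea, with its 95% interval from edgeR (horizontal axis), ordered from the largest change toward the cochlea to the largest toward the vestibule. The intervals of 8 markers lie on one side of 0, from Clu at -4.98 to S100a1 at 1.35, and that of Lfng spans it.

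Of the 22 tested paralogs of the markers, 13 were not called, while 7 were up-regulated in the vestibule (15.8% of all genes tested were) and 2 in the cochlea (11.6%). Without library 2 of the vestibule the paralogs called were 4 and 1, and the cochlear count was also 1 without library 1 or 2 of the cochlea or library 1 of the vestibule. Their median log2 fold change was 0.38.

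The markers were ranked against each other only per length, on the authors' log2 RPKM. In the cochlea *Clu* stood highest of the markers at 10.39 ± 0.43 log2 RPKM (SD, n = 3), rank 33 among the 14722 genes of the matrix. *S100a1* followed at 7.26 ± 0.27, then *Fabp7* at 6.16 ± 0.36, *Gas2* at 5.17 ± 0.13, *Lfng* at 5.04 ± 0.15, *Emid1* at 4.68 ± 0.03 and *Slc1a3* at 3.98 ± 0.46. *Prox1* (2.68 ± 0.17) and *Cd44* (2.54 ± 0.21) were lowest, at ranks 7080 and 7445. The libraries of *Gas2* and *Lfng* overlapped, as did those of *Prox1* and *Cd44*, and all other neighbours in this order were apart.

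In the vestibule the order was another. *S100a1* stood highest at 8.72 ± 0.29 log2 RPKM (rank 94), followed by *Gas2* at 5.99 ± 0.11, *Emid1* at 5.72 ± 0.10, *Clu* at 5.57 ± 0.11, *Fabp7* at 5.36 ± 0.14, *Lfng* at 5.14 ± 0.13 and *Slc1a3* at 4.77 ± 0.19. *Prox1* (1.91 ± 0.26) and *Cd44* (1.02 ± 0.10) were again lowest, at ranks 9640 and 11460. *Clu* went from rank 33 in the cochlea to 1097 in the vestibule, and *Emid1* from 2178 to 967. The libraries of *Emid1* and *Clu* overlapped and so did those of *Fabp7* and *Lfng*, while *Clu* and *Fabp7* met at 5.44.

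**Figure D3:**
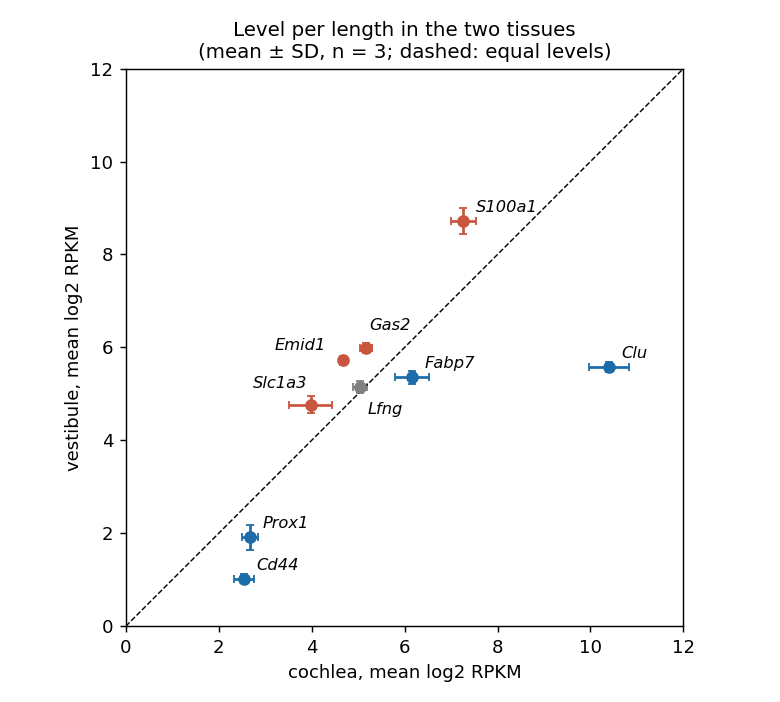
Mean log2 RPKM of each marker in the cochlea (horizontal axis) and the vestibule (vertical axis), with bars of 1 SD over 3 libraries and a dashed line where the levels are equal. Clu lies far to the right of the line at 10.39 and 5.57, S100a1 above it at 7.26 and 8.72, and Prox1 and Cd44 at the low end in both organs.

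In whole tissue, fewer supporting cells and less RNA per supporting cell cannot be told apart. The levels were also set against *Sox2*, a transcription factor of supporting cells and their precursors in both organs. This choice was made after the values were seen and is given without a test. Whether other cells hold part of the *Sox2* counts was not tested, so a count per *Sox2* count is not a level per supporting cell. *Sox2* was itself up-regulated in the cochlea (log2 fold change -0.60, SE 0.16, edgeR adjusted p = 0.0215), with 115, 122 and 89.9 CPM there and 76.6, 78.8 and 79.7 CPM in the vestibule. Per *Sox2* count, *Clu* gave 28.7, 48.2 and 55.9 counts in cochlear libraries and 1.95, 2.12 and 2.16 in vestibular ones. *Cd44* gave 0.288, 0.347 and 0.479 against 0.178, 0.186 and 0.161, and the cochlea was above in both. *Prox1* gave 0.408, 0.448 and 0.658 in cochlear against 0.5, 0.345 and 0.363 in vestibular libraries, and *Fabp7* 1.03, 0.682 and 0.807 against 0.597, 0.688 and 0.681. On this scale the tissues overlapped for *Prox1* and *Fabp7*. *Lfng* gave 0.592, 0.605 and 0.929 in cochlear against 1.15, 0.945 and 0.979 in vestibular libraries, now without overlap. The vestibule was thus above the cochlea in 5 markers (*Lfng*, *Slc1a3*, *S100a1*, *Gas2* and *Emid1*), as it was in 55.2% of all genes tested, and the cochlea was above in 2, as it was in 4.79% of all genes.

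Other genes known from supporting cells and the epithelium around them were mostly higher in the cochlea. Of 36 such genes in 3 lists, 24 were up-regulated in the cochlea, 8 were not called, and 4 were up-regulated in the vestibule, with a median log2 fold change of -1.09. The shares over all genes tested were 11.6% toward the cochlea and 15.8% toward the vestibule. The lists of the organ of Corti and of the cochlear non-sensory epithelium, which gave 9 each of the 24, hold genes picked as cochlear, so their direction is no independent evidence. Of 12 genes known from supporting cells of either organ, 6 were up-regulated in the cochlea, led by *Gjb2* (-2.14), a gap junction gene, *Otogl* (-1.56) and *Jag1* (-1.50). A further 3 were up-regulated in the vestibule, led by *Krt18* (1.71), a keratin, and *Otog* (1.04), and the summed level of this list overlapped between the tissues.

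Of 12 genes of the organ of Corti's supporting cells, 9 were up-regulated in the cochlea and 3 were not called. They were led by *Fgfr3* (-4.29), the receptor that pillar cells need to form, *Hes5* (-3.43), a Notch target, and *Lgr5* (-3.07), a receptor of Wnt signalling. This list summed to 782 to 858 CPM in the cochlea and 416 to 490.2 CPM in the vestibule. Of 12 genes of the non-sensory epithelium of the cochlea, 9 were also up-regulated there, led by *Epyc* (-6.36), *Tecta* (-4.22), which encodes a protein of the tectorial membrane, and *Gata3* (-4.06). In that list *Aqp4*, a water channel, was up-regulated in the vestibule (1.68). Its sum ranged from 11839 to 14253 CPM in the cochlea and from 1691 to 1742 CPM in the vestibule. Of the 36 genes *Epyc* alone had a larger change than *Clu* (-4.98), whereas *Cd44*, *Fabp7* and *Prox1* lay between -1.65 and -0.89.

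**Figure D4:**
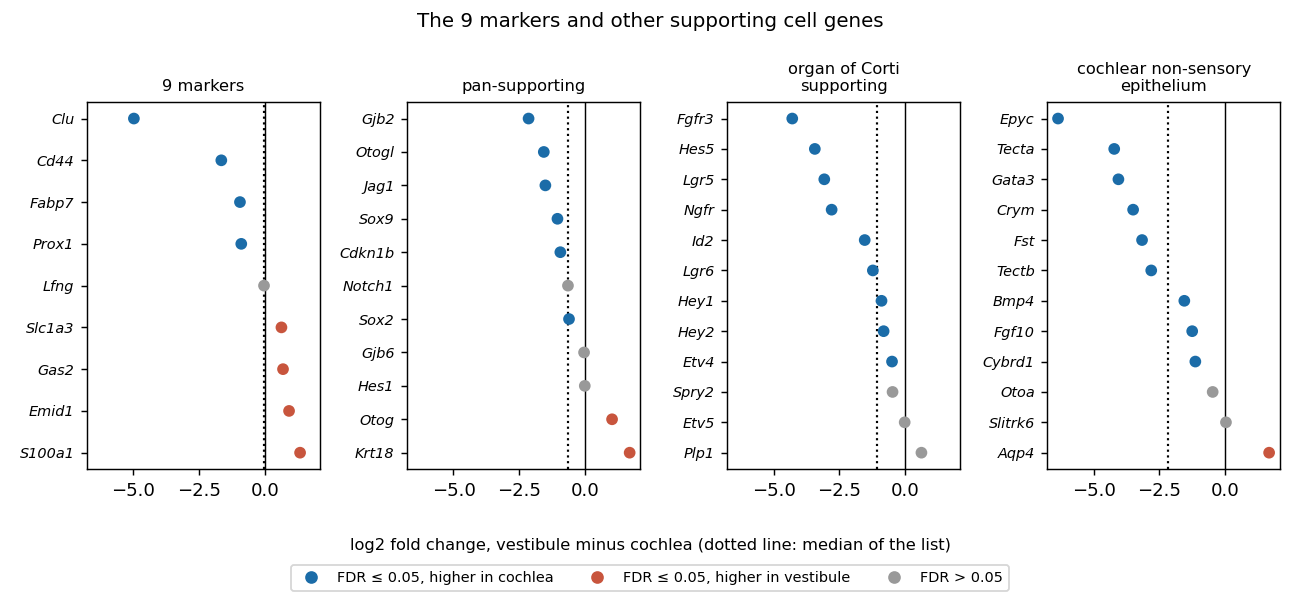
The log2 fold change, vestibule minus cochlea, of each marker and of the genes in 3 other lists of supporting and neighbouring epithelial cells (horizontal axis, one gene per row, 1 gene of the first of these lists not drawn, dotted line at the median of the list). The 9 markers lie on both sides of 0, while 9 of 12 genes of the organ of Corti list and 9 of 12 of the cochlear non-sensory list are higher in the cochlea with an FDR of at most 0.05.

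Markers of other cells that express some of these genes also differed between the libraries. The 10 genes of Schwann cells and satellite glia, which are known to express *Fabp7* and *Slc1a3* as well, summed to 781 to 959 CPM in the cochlea and 1402 to 1751 CPM in the vestibule. Of these, 4 were up-regulated in the vestibule, among them *S100b*, which is also a relative of *S100a1*, and 6 were not called. *Sox10*, the highest of them by mean CPM without regard to length, was not called. It stood at 242 to 308 CPM in the cochlea and 319.8 to 439.7 CPM in the vestibule. *Slc1a3* moved with this list and *Fabp7* against it, and the part of glia in either was not tested.

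Macrophages, which are known to express *Cd44*, were marked by 10 genes, all of them up-regulated in the vestibule, with *Csf1r* at 27.7 to 31.9 CPM in the cochlea and 112 to 128 CPM in the vestibule. Their sum was 115 to 137 CPM in the cochlea and 454 to 509 CPM in the vestibule, so that *Cd44* moved against this list. Lymphatic endothelium, which expresses *Prox1*, was marked by 5 genes that summed to 9.92 to 13.6 CPM in the cochlea and 53.0 to 62.4 CPM in the vestibule. Of the 4 that were tested, 2 were up-regulated in the vestibule, 1 in the cochlea and 1 was not called. *Pdpn* had a count of 0 in every library, and whether its transcript was absent or escaped counting was not tested. Most of the vestibular sum was *Lyve1*, with 2.05 to 4.62 CPM in the cochlea and 42.4 to 42.6 CPM in the vestibule. The gene called in the cochlea was *Ccl21a*, named here after its values were seen, with 1.85 to 2.08 CPM in the cochlea and 0.0297 to 0.156 CPM in the vestibule, and reads of its near-identical copies make its counts uncertain. *Prox1* thus moved against the summed level of this list, and the genes of the list went both ways.

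Hair cell genes, 15 in all, summed to 852 to 978 CPM in the cochlea and 1349 to 1661 CPM in the vestibule, where 8 were up-regulated (15.8% of all genes tested were), beside 2 in the cochlea (11.6%). Genes of mesenchyme, endothelium, and of melanocytes and stria also had higher sums in every vestibular library, though not every gene went that way. In mesenchyme 4 of 10 were up-regulated in the vestibule and 2 in the cochlea (*Lum* and *Pou3f4*), in endothelium 6 of 8 and 1 (*Emcn*), and in melanocytes and stria 8 of 9 were up-regulated in the vestibule and 1 was not called. These 3 genes are named after their values were seen. The sums of cartilage and bone and of red blood cells overlapped. Of 9 tested genes of neurons, 5 were up-regulated in the cochlea and 4 were not called, with a median log2 fold change of -1.72. The neuron sums overlapped, at 701, 642 and 318 CPM in cochlear libraries 1 to 3 and 381, 147 and 191 CPM in vestibular ones, with library 3 of the cochlea below library 1 of the vestibule. The skeletal muscle genes summed to 283 CPM in library 3 of the cochlea and to 4.13 to 27.5 CPM in the other 5 libraries. *Tnnc2* was at 0 throughout, also in library 3 of the cochlea, where *Acta1* had 4305 counts, so this 0 need not mean absence. Without that library the markers called were again 4 toward each organ. The part of these cells in the marker levels was not tested.

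**Figure D5:**
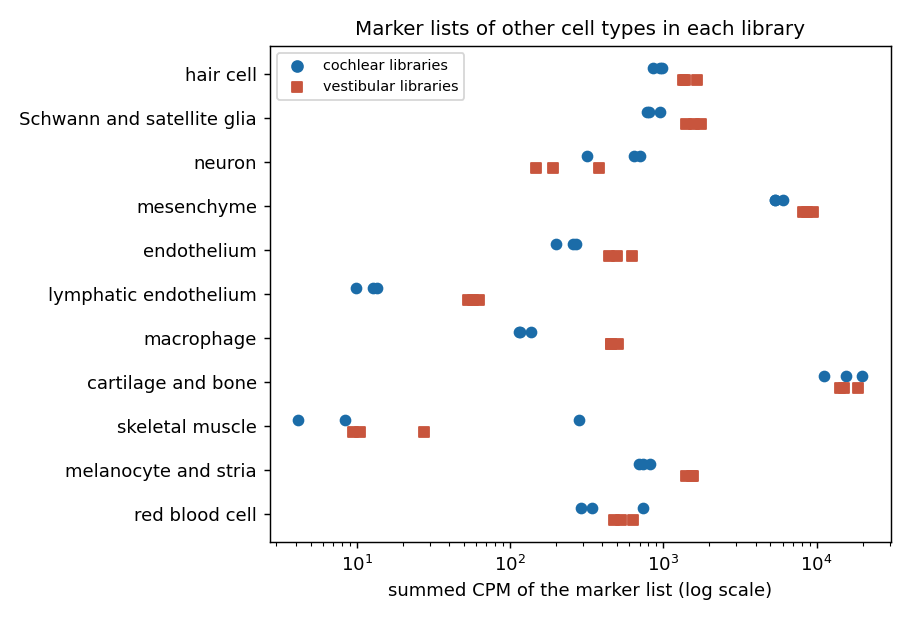
Summed CPM of the marker lists of other cell types in each library (horizontal axis, log scale; circles for the cochlea, squares for the vestibule). The lists of hair cells, glia, mesenchyme, endothelium, lymphatic endothelium, macrophages, and melanocytes and stria lie higher in all 3 vestibular libraries, and library 3 of the cochlea stands apart in skeletal muscle at 283 CPM.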

How the data were processed

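Reads were aligned with TopHat2 2.1.0 to GRCm38, and the authors deposited HTSeq 0.5.4p5 counts of read pairs on each Ensembl gene, not normalized. Whether counting used strand is not given in the sources used here. The closing lines of each file name no gene and hold 18.5% to 20.6% of its counts, and they entered neither library sizes nor tests. The deposited matrix of log2 RPKM was made by the authors, without TMM as far as the values show: 99.6% of the values of 12672 genes with a mean of at least 100 counts lay within 0.01 log2 of the CPM less a constant per gene. Its column names carry the code of the library.

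The quasi-likelihood test (glmQLFit and glmQLFTest, no replicate block) was that of edgeR 4.0.16 under R 4.3.3. The alternatives were DESeq2 1.42.0, edgeR's exact test, limma-voom (limma 3.58.1), other scalings and filters, an FDR of 0.1 combined with 1.3-fold change, a replicate block, and each library left out in turn. Intervals of 95% are from the model. Gene coordinates are from GENCODE vM21, not the release counted on. Likeness between genes was the root mean square difference of mean-centred log2 CPM (prior count 0.5). Named were all 9 markers and their paralogs and partners with at least 1 CPM. Added to these were, in each supporting cell list, the 3 genes with the largest change per direction. In other lists the genes with the highest mean CPM were taken, without regard to length. Of the genes under this rule, 2 are counted in their lists but not reported here. *Sox2* was added after its values were seen. The markers, gene lists and tests were chosen with earlier results of these data known. Python 3.11.15 and matplotlib 3.10.9 drew the figures.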

Additional observations from a re-analysis of the deposited data

How the results depend on the processing

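With 3 libraries per tissue, 1 library can decide a call near the threshold. The 4 markers up-regulated in the cochlea were called under every alternative run, as were *S100a1* and *Emid1* in the vestibule, and *Lfng* under none. The log2 fold change of *Lfng* turned above 0 without TMM (0.096), and it ranged from -0.11 to 0.053 with 1 library left out, above 0 without cochlea 3 (0.036) and without vestibule 2 (0.053). With 1 library left out, *Slc1a3* ranged from 0.43 to 0.78 (edgeR adjusted p 0.0385 to 0.116), the markers up-regulated in the vestibule numbered 3 to 4, the paralogs 1 to 2 in the cochlea and 4 to 8 in the vestibule, and all genes 925 (without vestibule 2) to 1863 (without cochlea 3) in the cochlea and 1342 to 2694 in the vestibule. The cause was not tested.

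Libraries of the 2 tissues share numbers, but same-numbered libraries did not deviate together (correlations of -0.175, -0.26 and -0.475), so the numbers were not taken as pairs. With the replicate block, 1009 genes were up-regulated in the cochlea, 1 paralog in the cochlea and 2 markers in the vestibule, since *Slc1a3* (0.67, edgeR adjusted p = 0.0848) and *Gas2* (0.70, 0.0535) passed the threshold no longer. Of 144 comparisons of a marker's fold change with an alternative, 136 kept their direction and their side of the threshold. The alternative with an FDR of 0.1 and 1.3-fold change moved only the threshold and reused the main fold changes. Of the counts of genes, 116 stayed within 1.5 times while 12 did not.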

Other observations

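For each marker, the tested gene with the most similar profile over the 6 libraries was found by the root mean square difference of mean-centred log2 CPM, where 0 would mean the same relative levels. The measure is a description, and nothing follows from it on shared function or control. *Lfng* was closest to *Npc1* (0.031), *Gas2* to *Id4* (0.042), *Emid1* to *Vsig2* (0.051), *Fabp7* to *Pter* (0.055), *S100a1* to *Wfdc1* (0.071), *Cd44* to *Igfbp5* (0.075), *Slc1a3* to *Reep4* (0.087) and *Prox1* to *Pcdh7* (0.094). *Clu* had no gene so near, and its closest was *Syt6* (0.23), at 29.5 to 40.6 CPM in the cochlea and 1.13 to 1.84 CPM in the vestibule. *Igfbp5*, which encodes a secreted protein that binds insulin-like growth factors, stood at 2143 to 3216 CPM in the cochlea and 914 to 1009 CPM in the vestibule. *Vsig2* had only 0.521 to 1.26 CPM over the 6 libraries and *Wfdc1* 1.03 to 3.81 CPM, so their profiles rest on few counts.

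Of 13 tested genes that act with the markers, as ligands, receptors or enzymes, 2 were up-regulated in the cochlea (*Jag1* and *Has3*), 3 in the vestibule (*Dll1*, *Glul* and *Lrp2*) and 8 were not called, with a median log2 fold change of 0.44. Over all genes tested the shares were 11.6% and 15.8%, and those of this list lay near them. *Lrp2*, a receptor for clusterin, had a log2 fold change of 0.66 (SE 0.21, edgeR adjusted p = 0.0439), opposite to that of *Clu*, with 132, 132 and 219.8 CPM in the cochlea and 323, 278 and 231 CPM in the vestibule. *Trem2*, a receptor of macrophages that also binds clusterin, was not called (0.52). *Hyal1* and *Hyal2*, which break hyaluronan down, had log2 fold changes of 0.78 and -0.17 and were not called.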
